A study of Mus musculus with 25 samples.

Results

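This account follows 10 genes of the NRF2 pathway and of thioredoxin recycling in the *soleus*, a calf muscle of slow and fast oxidative fibers, of mice that rested or ran. They were chosen by name among the 52636 genes of the deposited count table: the regulators *Nfe2l2* and *Keap1*, the detoxification enzymes *Nqo1* and *Hmox1*, the thioredoxin and peroxiredoxin genes *Srxn1*, *Txn1*, *Txnrd1*, *Prdx1* and *Prdx6*, and the NADPH-producing *G6pdx*. All 10 were found in the table and all 10 passed the filter on low counts, which left 16340 genes. RNA was sequenced from 25 C57BL/6 mice of 12 weeks in 4 groups. There were 5 WT mice at rest (2 females and 3 males), 7 WT mice 60 minutes after exercise (4 females and 3 males), 7 mD3AKO mice at rest (3 females and 4 males) and 6 mD3AKO mice 60 minutes after exercise (3 females and 3 males). WT mice carried *Dnmt3a* flox/flox alleles without Cre, and mD3AKO mice carried the same floxed alleles with Cre under the muscle creatine kinase promoter, so that both genotypes were bred with exon 19 floxed. That promoter drives Cre in muscle fibers and heart from late differentiation, and the other cells of the muscle may keep *Dnmt3a*. Exercise was a single treadmill bout of 30 minutes, and resting mice spent that time in a separate sham arena.

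NRF2, the product of *Nfe2l2*, is a transcription factor that KEAP1 holds in the cytosol and delivers for degradation. When oxidants or electrophiles modify KEAP1, NRF2 reaches the nucleus, pairs with a small MAF protein and binds antioxidant response elements beside genes for detoxification, glutathione, thioredoxin and NADPH. Thioredoxin (*Txn1*) gives its electrons to peroxiredoxins that remove peroxides and is recharged from NADPH by thioredoxin reductase (*Txnrd1*), while sulfiredoxin (*Srxn1*) rescues peroxiredoxins that peroxide has over-oxidized. Contracting muscle is known to make peroxide and superoxide, and exercise is among the settings in which this pathway is studied.

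Total counts ranged from 22671457 to 37431801 per library, so that 1 CPM (counts scaled to the TMM-normalized library size) rested on about 32.2 counts at the median library. *Dnmt3a* lay between 93.4 and 130.5 CPM in WT mice and between 34.5 and 53.9 CPM in mD3AKO mice, without overlap. The defining genes of soleus muscle summed to between 71800 and 95640 CPM in every group. The library of mouse 15, a male mD3AKO mouse at rest, stood apart, because 39.5% of its counts fell on 3 genes of ribosomal RNA type, against 7.75% to 13.0% in the other libraries. The results of exercise for *Nfe2l2* and *Srxn1* are therefore also given without it. In whole muscle, fewer cells of a type and less RNA per cell cannot be told apart.

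Sequences upstream of the genes were read to show where the letters of the antioxidant response element stand. RefSeq promoter windows (GRCm38.p6, 250 bases before to 50 bases after a start site) were found for 8 of the 10 genes, in 10 windows, and none for *Hmox1* and *Prdx6*. The core searched was TGACNNNGC on both strands, and 5 of the 10 windows held it, against 12.4% of all 32851 promoter windows. These windows were of 5 of the 8 genes (*Nfe2l2*, *Srxn1*, *Txnrd1*, *Prdx1* and *G6pdx*), against 14% of all 27025 genes. The AP-1 letters TGANTCA, which can overlap that core, were also searched on both strands. They were found at 2 places each in the windows of *Srxn1* and *Prdx1*, against 7.81% of all windows and 8.97% of all genes. A match is a description of letters and not a measured binding site, and letters outside these windows were not read. The windows of the pair of genes that rose with exercise and of *Txnrd1* and *Prdx1*, which differed between the sexes, are printed 5′ to 3′ on the strand of each gene, with both kinds of match in capitals.

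*Nfe2l2* (chr2:75704614-75704913, reverse strand): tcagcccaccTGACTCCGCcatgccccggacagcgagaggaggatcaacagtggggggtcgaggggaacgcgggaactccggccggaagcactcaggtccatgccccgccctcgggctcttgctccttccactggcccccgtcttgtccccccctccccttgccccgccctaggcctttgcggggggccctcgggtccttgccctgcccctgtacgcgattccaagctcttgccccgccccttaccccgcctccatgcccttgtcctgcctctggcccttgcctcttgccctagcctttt

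*Srxn1* (chr2:152105274-152105573, forward strand): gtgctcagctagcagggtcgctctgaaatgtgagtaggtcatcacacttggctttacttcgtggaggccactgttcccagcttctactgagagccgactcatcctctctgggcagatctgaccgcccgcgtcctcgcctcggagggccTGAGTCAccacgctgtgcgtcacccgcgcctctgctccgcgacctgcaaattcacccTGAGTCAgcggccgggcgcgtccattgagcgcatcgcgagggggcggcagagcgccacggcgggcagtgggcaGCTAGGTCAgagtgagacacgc

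*Txnrd1* (chr10:82858956-82859255, forward strand, 1 of its 3 windows): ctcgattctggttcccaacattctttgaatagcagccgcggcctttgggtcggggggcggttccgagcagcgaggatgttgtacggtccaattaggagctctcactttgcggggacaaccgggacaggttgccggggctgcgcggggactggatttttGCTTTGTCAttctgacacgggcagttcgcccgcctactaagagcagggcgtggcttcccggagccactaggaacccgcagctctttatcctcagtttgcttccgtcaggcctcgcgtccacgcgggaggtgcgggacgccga

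*Prdx1* (chr4:116685349-116685648, forward strand): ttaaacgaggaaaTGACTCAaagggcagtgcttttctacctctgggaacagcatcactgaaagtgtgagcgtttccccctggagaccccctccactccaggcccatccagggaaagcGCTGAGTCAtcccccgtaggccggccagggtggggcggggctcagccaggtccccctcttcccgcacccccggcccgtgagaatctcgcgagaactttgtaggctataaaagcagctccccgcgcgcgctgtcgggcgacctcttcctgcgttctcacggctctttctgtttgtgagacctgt

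In the *Srxn1* window both AP-1 matches lay upstream of the start site and the antioxidant core lay after it, read on the opposite strand. In the *Prdx1* window 1 of the AP-1 matches shared its letters with the antioxidant core. The *Nfe2l2* window held 1 core and no AP-1 match.

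Comparison of rested and exercised muscle asked which of the 10 genes respond within an hour of running. Exercise raised *Nfe2l2*, the NRF2 transcription factor itself, by 1.70-fold and *Srxn1*, sulfiredoxin, by 1.93-fold over both sexes. For *Srxn1* the pooled value stood for neither sex, with 2.60-fold in males and 1.26-fold in females, where it was not called (edgeR adjusted p = 0.205). Over both sexes 2 of the 10 genes were called, both higher, against 10.4% of all genes tested (1699 of 16340, at an adjusted p under 0.05 in edgeR's quasi-likelihood test). The other 8 genes, among them the commonly used NRF2 targets *Nqo1* and *Hmox1*, were not called in this fit. With sex as a term 3 of the 10 were called, *Txnrd1* being added, against 1946 of 16340 in all. A fit of 8 groups, split by sex, genotype and exercise, called the same 3, against 1790 of 16340. The median log2 fold change of the 10 genes was 0.084, against -0.00088 over all genes tested, and 9 of the 10 lay above 0.

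**Figure D1:**
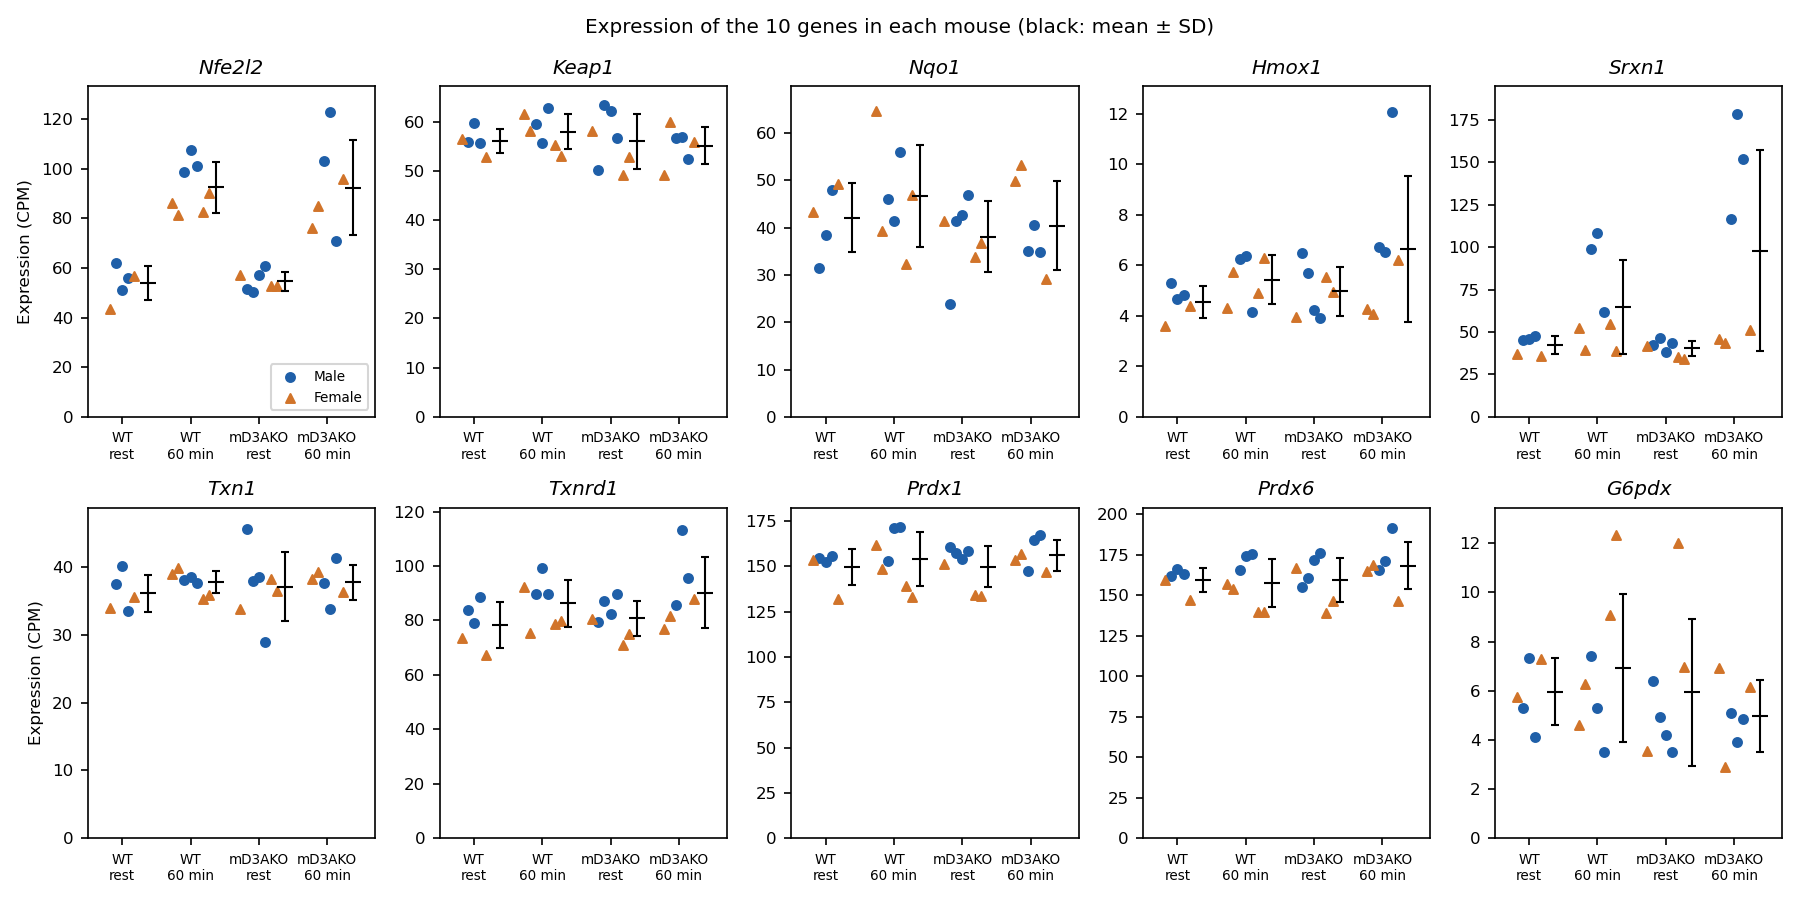
Expression in CPM (vertical axes, starting at 0) of the 10 genes in each of the 25 mice by genotype and exercise, with males as blue circles, females as orange triangles, and the mean ± SD of each group in black. *Nfe2l2* was higher in every exercised mouse than in any rested mouse, while the exercised *Srxn1* values spread from 38.7 to 178.5 CPM.

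*Nfe2l2* (ENSMUSG00000015839, mm10 chr2:75675513-75704641, reverse strand) was at 43.6, 51.0, 56.0, 56.6 and 62.0 CPM in the 5 WT mice at rest. In WT mice after exercise it ranged from 81.2 to 107.6 CPM with a median of 90.0 CPM (n = 7). In mD3AKO mice it ranged from 50.4 to 60.6 CPM with a median of 52.8 CPM at rest (n = 7), and from 70.7 to 123.0 CPM with a median of 90.5 CPM after exercise (n = 6). All 13 exercised mice lay above all 12 rested mice, whatever their genotype. The log2 fold change was 0.77 (SE 0.076), with an adjusted p of 4.4e-08 by edgeR, which ranked 79th of the 16340 genes. Without mouse 15 it was 0.78, and with each other mouse left out in turn the call remained, with values between 0.72 and 0.80. The response was called in both genotypes, at 0.78 (SE 0.11, edgeR adjusted p = 4.2e-05) in WT mice and 0.76 (SE 0.10, edgeR adjusted p = 1.8e-05) in mD3AKO mice, and the difference of the responses was -0.02 (SE 0.15, edgeR adjusted p = 1.00). It was also called in each sex, with 0.86 in males and 0.71 in females (SE 0.10 for each, edgeR adjusted p of 2.7e-06 and 0.00012), and the difference between the sexes was 0.15 (SE 0.14, edgeR adjusted p = 1.00), or between 0.042 (without the rested WT mouse 20) and 0.24 (without the exercised mD3AKO mouse 19) with a mouse left out. By Pearson correlation of log2 CPM over the 25 libraries, the genes most like *Nfe2l2* were *Otud1* (r = 0.961), *BB123696* (r = 0.945) and *Irs2* (r = 0.940), among 12687 genes compared. These coefficients pool 12 rested and 13 exercised libraries, and the part of the exercise bout in them was not tested.

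*Keap1* (ENSMUSG00000003308, chr9:21229730-21239361, reverse strand), the inhibitor, stayed within a narrow range. It was between 49.1 and 63.3 CPM at rest and between 49.2 and 62.8 CPM after exercise, so the exercised range lay inside the rested one. Its log2 fold change was 0.012 (SE 0.045, edgeR adjusted p = 0.935). The antisense gene *Gm16754* overlaps 3280 exonic bases of *Keap1* but had only 314 counts in all libraries together, against 45618 for *Keap1*. The patterns most like it were those of *Asb16* (r = 0.862), *Dusp28* (r = 0.857) and *Map1lc3b* (r = 0.852).

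The detoxification enzymes were at unequal levels, and neither was called. *Nqo1* (ENSMUSG00000003849, chr8:107388225-107403206, reverse strand), a quinone reductase, lay between 23.8 and 49.3 CPM at rest and between 29.2 and 64.6 CPM after exercise, with medians of 41.4 CPM in both. Its log2 fold change was 0.12 (SE 0.12, edgeR adjusted p = 0.659), and it lay between 0.065 and 0.16 with a mouse left out, lowest without the exercised mD3AKO mouse 6. *Hmox1* (ENSMUSG00000005413, chr8:75093621-75100589, forward strand), the inducible heme oxygenase, lay between 3.58 and 6.48 CPM at rest and between 4.09 and 12.1 CPM after exercise. The medians were 4.74 and 6.20 CPM, and 9 of the 13 exercised mice exceeded the rested median. Its log2 fold change was 0.33 (SE 0.14, edgeR adjusted p = 0.144), and the value was 0.20 without the exercised mD3AKO mouse 19, which held the highest value. *Nqo1* was most like *Prps1* (r = 0.848), *Gsta4* (r = 0.847) and *Tpd52l1* (r = 0.844), and *Hmox1* was most like *Myh9* (r = 0.855), *Vcl* (r = 0.828) and *F2rl1* (r = 0.826). Leukocyte markers varied with both enzymes: the log2 sum of the 11 tested of 12 macrophage and leukocyte genes had an r of 0.604 with *Hmox1* and -0.696 with *Nqo1* over the 25 libraries. *Nqo1* also went with other marker sums, with an r of -0.717 for fibroblasts, -0.689 for blood and, less closely, -0.48 for endothelium. The leukocyte sum ranged from 126.4 to 171.6 CPM in rested WT mice, from 87.2 to 206.7 CPM in exercised WT mice, from 81.7 to 295.2 CPM in rested mD3AKO mice and from 63.9 to 228.6 CPM in exercised mD3AKO mice. Of these 11 genes 1 was called for exercise (*S100a9*, lower), *Ly6g* had at most 3 counts in every library, and the part of these cells in the levels of *Hmox1* and *Nqo1* was not tested.

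*Srxn1* (ENSMUSG00000032802, chr2:152105516-152111376, forward strand) was at 36.1, 37.3, 45.0, 45.8 and 47.6 CPM in the 5 WT mice at rest. In WT mice after exercise it ranged from 38.7 to 108.5 CPM with a median of 55.0 CPM (n = 7). In mD3AKO mice it ranged from 34.2 to 46.6 CPM with a median of 41.7 CPM at rest (n = 7), and from 43.4 to 178.5 CPM with a median of 83.9 CPM after exercise (n = 6). Groups overlapped, since 4 of the 13 exercised mice lay within the rested range, while the other 9 lay above it. The log2 fold change was 0.95 (SE 0.21, edgeR adjusted p = 0.00314). Without mouse 15 it was 0.96, and with each mouse left out it stayed called at between 0.82 and 1.02. The coefficient of variation was 11.5% at rest and 57.9% after exercise, and the mice that reached over 60 CPM were all males.

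Among the other thioredoxin and peroxiredoxin genes none was called for exercise. *Txn1* (ENSMUSG00000028367, chr4:57943373-57956411, reverse strand), cytosolic thioredoxin, ranged from 28.9 to 45.6 CPM at rest and from 33.8 to 41.4 CPM after exercise, with a log2 fold change of 0.043 (SE 0.053, edgeR adjusted p = 0.739). Its pseudogene copy *Txn-ps1* had 107 counts in all, against 30410 for *Txn1*. *Txnrd1* (ENSMUSG00000020250, chr10:82833951-82897712, forward strand), cytosolic thioredoxin reductase, ranged from 67.2 to 89.9 CPM at rest and from 75.5 to 113.4 CPM after exercise. In the fit without sex its log2 fold change of 0.15 (SE 0.061) was not called, with an edgeR adjusted p of 0.136. With sex as a term it was 0.17 and called, with an edgeR adjusted p of 0.00968, and with 8 groups of sex, genotype and exercise it was 0.17 with an edgeR adjusted p of 0.0182. *Prdx1* (ENSMUSG00000028691, chr4:116685544-116700822, forward strand), a peroxiredoxin that thioredoxin recharges, ranged from 131.9 to 160.5 CPM at rest and from 133.0 to 171.7 CPM after exercise. *Prdx6* (ENSMUSG00000026701, chr1:161240112-161251219, reverse strand), a peroxiredoxin with a single catalytic cysteine that glutathione recharges, ranged from 139.4 to 176.4 CPM and from 139.5 to 191.9 CPM. Their log2 fold changes were 0.050 (SE 0.047, edgeR adjusted p = 0.631) and 0.032 (SE 0.049, edgeR adjusted p = 0.806). These small values moved with single mice: with a mouse left out *Txn1* lay between 0.020 (without mouse 15) and 0.072, *Prdx1* between 0.029 (without the rested WT mouse 20) and 0.0665, and *Prdx6* between 0.0060 (without the exercised mD3AKO mouse 19) and 0.051, and none of the 3 was called in any of these fits.

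*G6pdx* (ENSMUSG00000031400, chrX:74409483-74429194, reverse strand), glucose-6-phosphate dehydrogenase, the entry enzyme of the pentose phosphate pathway, was lowly expressed. It ranged from 3.50 to 12.0 CPM at rest and from 2.89 to 12.3 CPM after exercise, with a log2 fold change of -0.024 (SE 0.20, edgeR adjusted p = 0.977). The opposite-strand gene *Ikbkg* overlaps 1452 of its exonic bases and had 38602 counts in all, against 5000 for *G6pdx*. The sources used here do not say whether reads were counted by strand. The *G6pdx* counts may therefore hold reads of *Ikbkg* or lack reads of the shared bases. Its level went with fat markers: the log2 sum of 7 adipocyte genes, which ranged from 221.9 to 913.4 CPM, had an r of 0.854 with *G6pdx* over the 25 libraries. Its r was 0.632 with the leukocyte sum, 0.627 with the fibroblast sum and -0.573 with the soleus fiber sum. Their part in the *G6pdx* level was not tested. The patterns most like it were those of *Ntrk2* (r = 0.949), *Pygl* (r = 0.936) and *Nnmt* (r = 0.920).

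**Figure D2:**
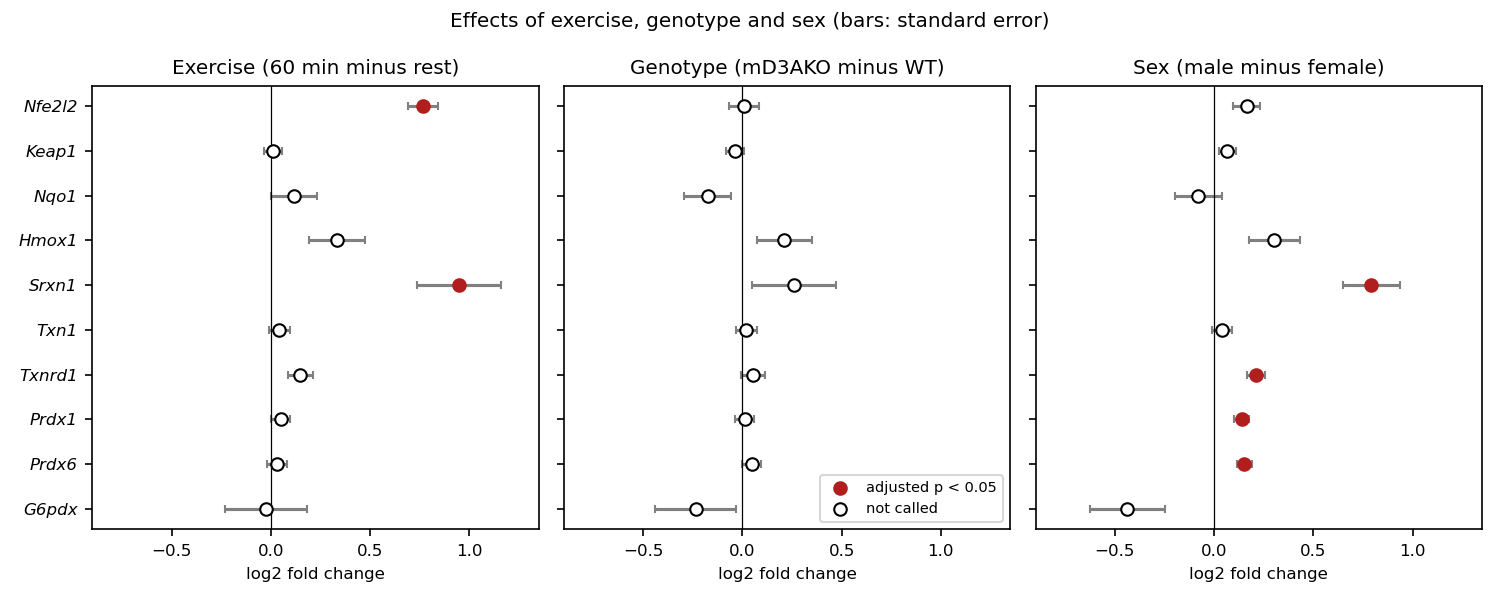
Log2 fold changes of the 10 genes (horizontal axes) for exercise, genotype and sex, with standard errors as bars, red points for genes at an adjusted p under 0.05 in edgeR and open points for the rest. *Nfe2l2* and *Srxn1* were called for exercise, none of the 10 genes for genotype, and *Srxn1*, *Txnrd1*, *Prdx1* and *Prdx6* for sex.

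Markers of other cells of the muscle were also read for exercise. Of 8 endothelial genes 5 were called and all 5 were lower (*Cdh5*, *Kdr*, *Tek*, *Emcn* and *Cldn5*), with sums from 430.1 to 580.0 CPM in rested mice and from 369.0 to 485.7 CPM in exercised mice. The log2 sum of these genes had an r of -0.595 with *Nfe2l2* and -0.422 with *Srxn1*, and their part in the response of both genes was not tested. Genes called among the markers of fibroblasts, blood, adipocytes and soleus fibers numbered 0 of 7, 0 of 7, 0 of 7 and 0 of 10 by edgeR, with 2, 0, 0 and 0 at an unadjusted p under 0.05, against 3488 of all 16340 genes. All 7 fibroblast markers nevertheless had lower values after exercise, with a median of -0.37, against -0.25 for the endothelial genes. All 7 blood markers had lower values too, with a median of -0.13, and all 7 adipocyte markers had higher ones, with a median of 0.11. Of the 11 tested macrophage and leukocyte markers, with which *Hmox1* varied, 18.2% lay above 0, with a median of -0.17. By genotype, the adipocyte median was 0.60 in WT mice, with 7 of 7 above 0, and -0.12 in mD3AKO mice, with 1 of 7 above 0, while the fibroblast median was -0.11 in WT mice, with 2 of 7 above 0, and -0.46 in mD3AKO mice, with 0 of 7 above 0. The interaction of exercise and genotype was called by edgeR for 0 of the 7 genes of each list, with 0 of each at an unadjusted p under 0.05.

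Comparison of mD3AKO and WT muscle asked whether loss of DNMT3A, a *de novo* DNA methyltransferase, alters the pathway. None of the 10 genes was called for genotype by edgeR, against 0.269% of all genes tested (44 of 16340), and 0 of the 10 had an unadjusted p under 0.05, against 1018 of all genes. DESeq2 also called 0 of the 10. The largest differences in either direction were 0.26 for *Srxn1* (SE 0.21, edgeR adjusted p = 0.966), 0.21 for *Hmox1* (SE 0.14, edgeR adjusted p = 0.938), -0.18 for *Nqo1* (SE 0.12, edgeR adjusted p = 0.940) and -0.24 for *G6pdx* (SE 0.20, edgeR adjusted p = 0.978). With each mouse left out in turn these values ranged from 0.13 (without the exercised mD3AKO mouse 17) to 0.35 for *Srxn1*, from 0.081 (without the exercised mD3AKO mouse 19) to 0.26 for *Hmox1* and from -0.37 (without the rested mD3AKO mouse 21) to -0.14 (without the exercised WT mouse 25) for *G6pdx*. In females alone *Srxn1* differed by 0.013 and *Hmox1* by 0.064, and in males alone by 0.31 and 0.32. Of the 11 leukocyte markers, with which *Hmox1* and *Nqo1* varied, 9 had higher values in mD3AKO mice over both timepoints, with a median of 0.072 and 0 called by edgeR. Their median was 0.11 at rest, with 72.7% above 0, and -0.041 after exercise, with 27.3% above 0. The 7 fibroblast markers, with which *Nqo1* also varied, had a median of 0.20 at rest, with 100% above 0. After exercise their median was -0.18, with 14.3% above 0. The 7 blood markers had medians of -0.14 at rest and 0.011 after exercise, and none of either list was called by edgeR. The part of the leukocyte, fibroblast and blood markers in the *Hmox1* and *Nqo1* values was not tested. *Nfe2l2* differed by 0.009 (SE 0.075). All 7 adipocyte markers, with which *G6pdx* varied, had lower values in mD3AKO mice, with a median of -0.68 over both timepoints, -0.22 at rest and -1.09 after exercise. None of the 7 was called by edgeR, with 1, 0 and 3 at an unadjusted p under 0.05, and their part in the *G6pdx* value was not tested. At rest alone 0 genes of the 10 were called by edgeR and by DESeq2, against 0.0918% of all genes, and 0 had an unadjusted p under 0.05, against 597 of all 16340 genes. After exercise alone 0 were called by both tools, against 0.110%, and 1, *Srxn1*, had an unadjusted p under 0.05, against 900 of all 16340 genes. After exercise *Srxn1* was 0.59 higher in mD3AKO than in WT mice (SE 0.29, edgeR adjusted p = 0.900), and at rest it differed by -0.07 (SE 0.30). The value after exercise lay between 0.34 (without the exercised mD3AKO mouse 17) and 0.76 with a mouse left out, was 0.38 with 8 groups of sex, genotype and exercise, and was 0.016 in females alone.

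The interaction asked whether the response to exercise depends on genotype. It was called by edgeR for 0 of the 10 genes and for 0% of all genes tested, with 0 of the 10 and 403 of 16340 genes at an unadjusted p under 0.05. DESeq2 called 0 of the 10 and 0 of all genes. The largest values were 0.67 for *Srxn1* (SE 0.42, edgeR adjusted p = 1.00) and -0.48 for *G6pdx* (SE 0.41, edgeR adjusted p = 1.00). Both moved with single mice and with sex. The *Srxn1* value lay between 0.41 (without the exercised mD3AKO mouse 17) and 0.84 with a mouse left out, and was 0.0063 in females alone. The *G6pdx* value lay between -0.60 and -0.22 (without the rested mD3AKO mouse 21), was -0.29 without the exercised WT mouse 25, and was -0.0093 in males alone and -0.80 in females alone. Within genotypes, 1 of the 10 genes was called for exercise in WT mice (*Nfe2l2*), against 3.59% of all genes, and 2 in mD3AKO mice (*Nfe2l2* and *Srxn1*), against 6.02%. *Srxn1* changed by 1.28 in mD3AKO mice (SE 0.29, edgeR adjusted p = 0.00611). Its value in these mice was 1.80 in males alone (edgeR adjusted p = 3.5e-05), and 0.33 and not called in females alone (edgeR adjusted p = 0.495). In WT mice its value was 0.61 (SE 0.31, edgeR adjusted p = 0.436), and with sex as a term it was 0.67 and not called (edgeR adjusted p = 0.0753). It was called there with 8 groups of sex, genotype and exercise, at 0.65 with an edgeR adjusted p of 0.00321, and in males alone, at 0.95 with an edgeR adjusted p of 0.0206. The difference of these responses is the interaction given above, so the call in a single genotype does not show that the genotypes differ.

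Sex was then compared, because both sexes stood in each group and the spread of *Srxn1* followed them. Of the 10 genes 4 were called, all higher in males, against 10.0% of all genes tested (1640 of 16340, edgeR with sex as a term beside the 4 groups). *Srxn1* was 0.79 higher on the log2 scale (SE 0.14, edgeR adjusted p = 0.000818). That value pools unlike timepoints: the ranges were 38.4 to 47.6 CPM in males and 34.2 to 41.7 CPM in females at rest, with overlap, and 61.7 to 178.5 CPM and 38.7 to 55.0 CPM after exercise, without overlap. *Txnrd1* was 0.21 higher (SE 0.045, edgeR adjusted p = 0.00315), at 78.9 to 113.4 CPM in 13 males and 67.2 to 92.2 CPM in 12 females. *Prdx6* was 0.15 higher (SE 0.038, edgeR adjusted p = 0.0121), at 155.2 to 191.9 CPM in males and 139.4 to 168.6 CPM in females. For both genes the sexes overlapped, and all 13 males exceeded the female median. *Prdx1* was 0.14 higher (SE 0.038, edgeR adjusted p = 0.0199), at 147.1 to 171.7 CPM in males and 131.9 to 161.5 CPM in females, but this call was lost without the rested WT mouse 20 (0.13, edgeR adjusted p = 0.0506).

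The other 6 genes were not called for sex. *Nfe2l2* was 0.16 higher in males (SE 0.068, edgeR adjusted p = 0.126), and it was called at 0.20 when the exercised mD3AKO mouse 19 was left out (edgeR adjusted p = 0.0218). The values were 0.066 for *Keap1* (SE 0.043), 0.039 for *Txn1* (SE 0.052), 0.30 for *Hmox1* (SE 0.13), -0.081 for *Nqo1* (SE 0.12) and -0.44 for *G6pdx* (SE 0.19), with edgeR adjusted p between 0.132 and 0.726. With a mouse left out *Txn1* lay between 0.014 (without the rested mD3AKO mouse 7) and 0.075 (without mouse 15), and *Nqo1* between -0.12 and -0.032 (without the exercised WT mouse 4). The median of the 10 genes was 0.145, against -0.018 over all genes tested.

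Transcripts of muscle fiber genes differed with sex too, with 80% of the soleus fiber genes called, against 10.0% of all genes tested. The make-up of the fibers itself was not measured here. Of 10 soleus fiber genes 5 were lower in males, all of the slow type (*Myh7*, *Myl2*, *Tnnt1*, *Tnni1* and *Tnnc1*, with *Myh7*, slow myosin, at -0.49), and 3 were higher (*Ckm*, *Myh2* and *Mb*, with *Myh2*, a fast oxidative myosin, at 0.29), by edgeR at an adjusted p under 0.05. *Myh7* lay between 8498 and 11780 CPM in males and between 11470 and 20180 CPM in females. Genes called for sex among the macrophage, blood, endothelial, fibroblast and adipocyte markers numbered 0 by edgeR, with 0, 4, 0, 1 and 0 at an unadjusted p under 0.05, against 4096 of all 16340 genes. All 7 adipocyte markers nevertheless had lower values in males, with a median of -0.67, and all 7 blood markers had higher values, with a median of 0.55. The log2 sum of the adipocyte markers had an r of -0.577 with *Prdx6* and -0.52 with *Prdx1* over the 25 libraries. The part of these markers in the sex differences of both genes and in the *G6pdx* value of -0.44 was not tested. Males held the mouse numbers 7 to 19 and females 1 to 6 and 20 to 25, so any step of the work that followed the numbers cannot be told apart from sex. The part of fiber type in the differences of *Srxn1*, *Txnrd1*, *Prdx1* and *Prdx6* was not tested.

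**Figure D3:**
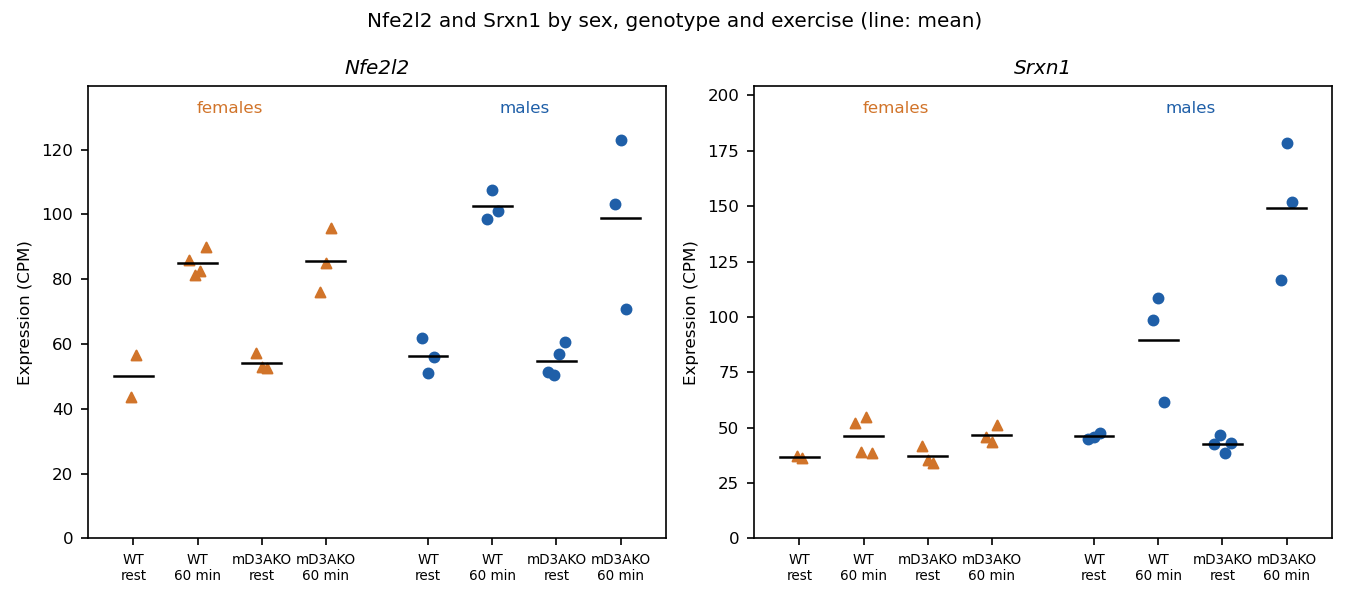
Expression of *Nfe2l2* and *Srxn1* in CPM (vertical axes, starting at 0) in each mouse, by sex, genotype and exercise, with a line at the mean of each of the 8 sets. *Nfe2l2* was higher after exercise in both sexes, while *Srxn1* reached 61.7 to 178.5 CPM in exercised males and 38.7 to 55.0 CPM in exercised females.

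The response of *Srxn1* to exercise differed between the sexes. In males it was at 45.0, 45.8 and 47.6 CPM in 3 WT mice at rest and at 61.7, 98.7 and 108.5 CPM in 3 WT mice after exercise. In mD3AKO males it was at 38.4, 42.5, 43.2 and 46.6 CPM at rest and at 116.6, 151.8 and 178.5 CPM after exercise. All 6 exercised males lay above all 7 rested males and above all 7 exercised females. In females it was at 36.1 and 37.3 CPM in WT mice at rest and at 38.7, 39.1, 52.2 and 54.9 CPM after exercise. In mD3AKO females it was at 34.2, 35.2 and 41.7 CPM at rest and at 43.4, 45.9 and 51.2 CPM after exercise. The female ranges overlapped, and 5 of the 7 exercised females lay above all rested females.

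Exercise raised *Srxn1* by 2.60-fold in males (log2 fold change 1.38, SE 0.12, edgeR adjusted p = 6.1e-08). In females the value was 1.26-fold (0.34, SE 0.13, edgeR adjusted p = 0.205). The difference of the responses was 1.04 (SE 0.17, edgeR adjusted p = 0.0165 with 8 groups of sex, genotype and exercise), and *Srxn1* was the only one of the 10 genes called, against 0.0551% of all genes tested (9 of 16340). The size of the difference held with each mouse left out, between 0.96 and 1.15, but the call was lost without the rested WT mouse 1 (1.03, edgeR adjusted p = 0.0779), without the exercised mD3AKO mouse 3 (1.03, edgeR adjusted p = 0.0502) and without the exercised mD3AKO mouse 6 (1.01, edgeR adjusted p = 0.0546), all of them female. In females of both runs of numbers the mean after exercise was above the mean at rest: mice 1 to 6 had means of 39.5 CPM at rest (n = 2) and 45.2 CPM after exercise (n = 4), and mice 20 to 25 had 35.2 CPM (n = 3) and 48.3 CPM (n = 3). By genotype, the response in males was 0.96 in WT mice (SE 0.17) and 1.80 in mD3AKO mice (SE 0.16), and in females 0.34 in both (SE 0.19 and 0.17). Exercised mD3AKO males lay above exercised WT males without overlap, with 3 mice in each set. In males alone neither the difference of the genotypes after exercise (0.73, edgeR adjusted p = 0.372) nor the interaction (0.85, edgeR adjusted p = 0.909) was called.

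The genes most like *Srxn1* over the 25 libraries were heat shock genes. They were *Hspa1b* (r = 0.916), *Dnajb1* (r = 0.910) and *Hspa1a* (r = 0.909), which encode inducible HSP70 chaperones and a cochaperone. *Hspa1a* and *Hspa1b* are near-identical copies, so reads may have been split between them. All 3 were also among the 9 genes called for a larger response in males, together with *Dnajb4*, another cochaperone of the same family, *Ifrd1*, *Arid5b*, *Bcl2l11* and *Gm10097*. *Dnajb1* lay between 8.31 and 18.4 CPM in rested males and between 49.2 and 182.6 CPM in exercised males, and between 7.70 and 10.6 CPM in rested females and between 14.1 and 29.4 CPM in exercised females. As the correlation is over the libraries in which the sexes and the bout differ, it describes a shared order of mice only.

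Some genes of the recycling arm varied together from mouse to mouse. The closest pairs of the 10 genes were *Prdx1* with *Prdx6* (r = 0.831), *Srxn1* with *Txnrd1* (r = 0.792) and *Txnrd1* with *Prdx1* (r = 0.727), over 25 libraries. With the mean of each of the 4 groups removed the values were 0.847, 0.745 and 0.719. *Txn1* did not go with them, with r = -0.108 to *Txnrd1*, 0.0215 to *Prdx6*, 0.0796 to *Srxn1* and 0.165 to *Prdx1*. *G6pdx* ran the other way, with r = -0.741 to *Prdx6* and -0.704 to *Prdx1*. Points in these correlations share library depth, sex and tissue make-up. *Txn1* was most like *Tmsb4x* (r = 0.803), *Txndc5* (r = 0.790) and *Slc39a6* (r = 0.782). *Txnrd1* was most like *Atpaf2* (r = 0.836), *Dnaja2* (r = 0.830) and *Cab39* (r = 0.829). *Prdx1* was most like *Mrpl3* (r = 0.911), *Ppa1* (r = 0.906) and *Prdx2* (r = 0.896), and the genes most like *Prdx6* included *Mb* (r = 0.871) and *Lap3* (r = 0.866).

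Levels between genes were compared per length, as RPKM, which is CPM divided by the exon length in kilobases, over all 25 libraries. *Prdx1* was highest at 50.1 ± 3.7 RPKM (SD, n = 25), ahead of *Txn1* at 35.4 ± 3.0 in 25 of 25 libraries. *Txn1* and *Prdx6* (33.5 ± 2.7) did not differ beyond their spread and stood in this order in 18 of 25 libraries. Their means in CPM were 37.2 and 161.1, so their order rests on the exon lengths used, 1051 and 4804 bases. *Nqo1* followed at 27.0 ± 5.8, below *Prdx6* in 22 of 25 libraries, then *Srxn1* at 21.8 ± 13.6, below *Nqo1* in 20 of 25, and *Nfe2l2* at 19.5 ± 5.8, with overlapping spreads. *Srxn1* was above *Nfe2l2* in only 10 of 25 libraries, so that the order of their means did not hold in most libraries. The order also changed with the group: *Srxn1* was at 15.0 RPKM in WT and 14.3 RPKM in mD3AKO mice at rest, but at 34.7 ± 21.05 RPKM in exercised mD3AKO mice (SD, n = 6), above *Nqo1* at 26.0 RPKM and beside *Prdx6* at 35.0 RPKM there. That *Srxn1* mean pooled unlike sexes, with means of 149.0 CPM in males and 46.8 CPM in females, so the order there need not hold in each sex. *Keap1* at 12.0 ± 0.86 and *Txnrd1* at 11.9 ± 1.4 did not differ beyond their spread and stood in this order in 16 of 25 libraries. *Hmox1* at 3.09 ± 0.97 and *G6pdx* at 1.94 ± 0.78 were lowest, in this order in 22 of 25 libraries.

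The wider pathway was read from 5 lists of 105 other genes, of which 95 were tested. For exercise 4 of the 95 genes were called (4.21%, against 10.4% of all genes tested), all higher, and their median was -0.0058, against -0.00088 over all genes. Of 18 NRF2 regulators 3 rose. *Maff* and *Mafk* encode small MAF proteins, the partners of NRF2 on DNA, and rose by 2.22 (SE 0.17, edgeR adjusted p = 3.5e-10) and 0.89 (SE 0.075, edgeR adjusted p = 3.1e-09), while *Bach1*, a repressor that competes for the same elements, rose by 0.42 (SE 0.053, edgeR adjusted p = 2.3e-06). *Maff* lay between 3.96 and 8.85 CPM in 12 rested mice and between 12.8 and 37.6 CPM in 13 exercised mice, without overlap. *Mafk* likewise lay between 31.3 and 53.8 CPM at rest and between 56.9 and 89.7 CPM after exercise. *Bach1*, too, lay between 30.9 and 42.5 CPM at rest and between 43.3 and 58.3 CPM after exercise.

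Among the targets, 1 of 21 genes of detoxification, iron and haem was called, *Ftl1*, ferritin light chain, which rose by 0.30 (SE 0.071, edgeR adjusted p = 0.00559), with overlap of the rested range of 48.9 to 72.7 CPM and the exercised range of 57.3 to 83.0 CPM. *Ftl1* has many processed copies in the genome, so its count is uncertain. None of 17 glutathione and transport genes, 22 thioredoxin and peroxiredoxin genes and 17 NADPH genes was called by edgeR or by DESeq2, with 1, 1 and 2 at an unadjusted p under 0.05, against 3488 of all 16340 genes. These counts moved with the fit: edgeR called *Sesn1*, a sestrin, with sex as a term (0.24, edgeR adjusted p = 0.0461), and the NADPH genes *Nnt* without the exercised WT mouse 4 (-0.46, edgeR adjusted p = 0.0481) and *Nadk* without the rested mD3AKO mouse 21 (0.20, edgeR adjusted p = 0.015). In the detoxification list 2 genes were called in place of 1 without the rested mD3AKO mouse 7, which added *Aldh3a1* (0.96, edgeR adjusted p = 0.0408), or without mouse 15, which added *Cbr3* (-0.32, edgeR adjusted p = 0.0468). Among the regulators *Mafg*, another small MAF gene, was also called without the rested mD3AKO mouse 2 (0.15, edgeR adjusted p = 0.0426). These 6 genes were named after their values were seen. For genotype 0 of the 95 genes were called by edgeR, against 0.269% of all genes, with 8 at an unadjusted p under 0.05, against 1018 of all 16340 genes. DESeq2 called 81 of all genes and 1 of the 95, *Gstm2*, a glutathione transferase, at -0.49 (DESeq2 adjusted p = 0.0155, edgeR adjusted p = 0.104), which was named after its values were seen.

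**Figure D4:**
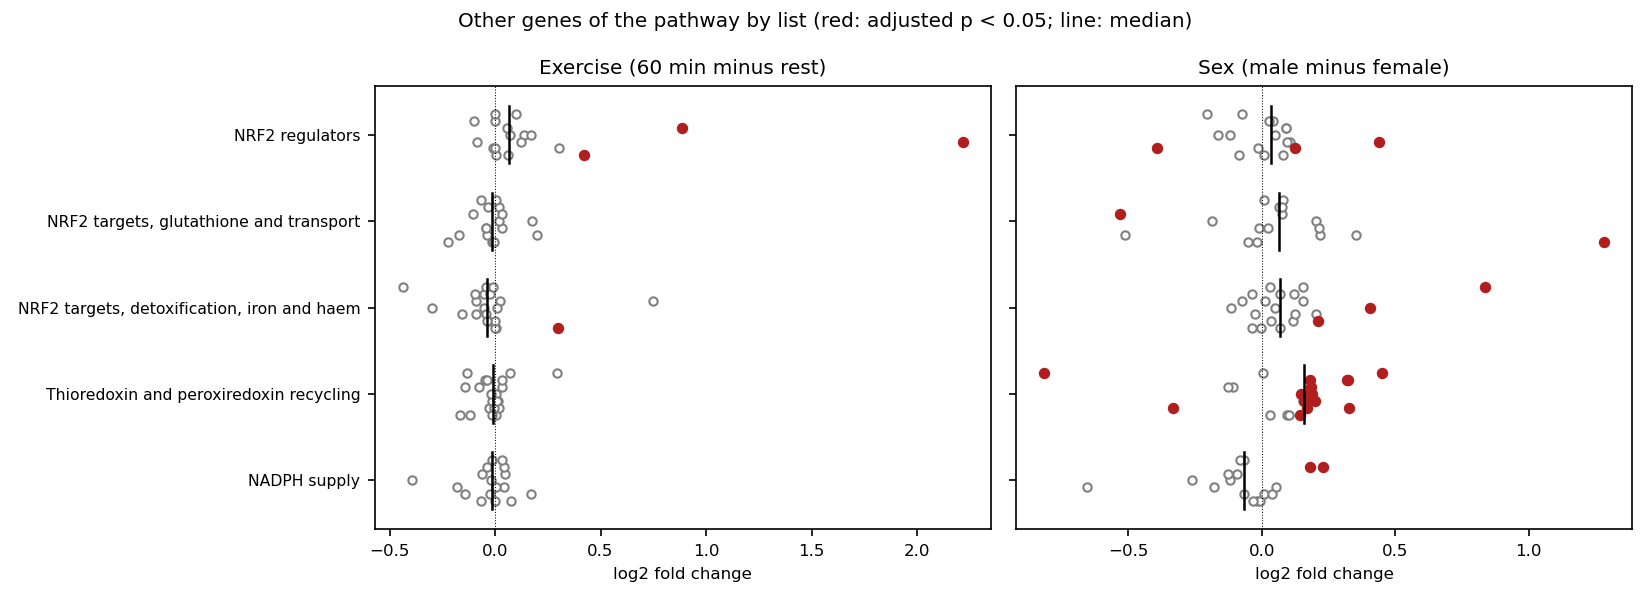
Log2 fold changes (horizontal axes) of the tested genes of the 5 pathway lists for exercise and for sex, 1 point per gene, red at an adjusted p under 0.05 in edgeR, with a line at the median of each list. For exercise 4 genes were called, 3 of them NRF2 regulators, and for sex 15 of the 22 thioredoxin and peroxiredoxin genes were called.

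For sex 25 of the 95 genes were called (26.3%, against 10.0% of all genes tested), 21 higher and 4 lower in males. Most stood in the thioredoxin and peroxiredoxin list, where 13 of 22 genes were higher in males and 2 were lower. The 3 largest increases were those of *Msrb2* (0.45) and *Msrb1* (0.32), which repair oxidized methionine, and of the thioredoxin-like *Nxn* (0.33), and the sestrins *Sesn1* (-0.81) and *Sesn3* (-0.33) were lower. The median of the list was 0.16, against -0.018 over all genes. Among the other lists, *Mgst1*, a microsomal glutathione transferase, was 1.28 higher and *Gstm2*, a cytosolic one, was lower (-0.53). The iron exporter *Slc40a1* was 0.84 higher, *Osgin1* 0.41 and *Akr1b10* 0.21, the regulators *Maff* 0.44 and *Hdac3* 0.12 higher and *Bach2* lower (-0.39), and the NADPH genes *Pgls* 0.23 and *Me3* 0.18 higher. The fiber genes given above moved with sex in the same libraries, and their part in these differences was not tested.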

How the data were processed

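RNA of whole *soleus* muscle, 1 library per mouse, was measured in 25 mice. The authors depleted ribosomal RNA, made stranded libraries and read 75-bp paired ends. The submitters' processing notes name FastQC 0.11.5, STAR 2.5.3a, featureCounts 1.5.3 and mm10, and the gene model was GENCODE release 15. Whether counting used the strand is not given in the sources used here. The deposited values are raw counts per gene, and 0 columns belonged to other samples. Symbols came from GENCODE release 21 (52403 of 52636 genes matched, 233 without).

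Groups, sex and mouse numbers came from the labels. All 67 replicate pairs differed beyond sampling noise. Counts were tested with edgeR 4.0.16 (limma 3.58.1, R 4.3.3; quasi-likelihood F test, TMM, filterByExpr at its defaults of 10 counts per library and 15 in total), with 1 mean per group and Benjamini-Hochberg adjustment over 16340 genes at 0.05. Sex was a term beside the 4 groups, and the difference of responses between sexes used 8 groups. SE is the log2 fold change over the square root of F. The fit was tested on simulated data, and no result reported here rests on that test. Correlations used log2 CPM with a prior count of 2, among genes with a mean of at least 0. P-values measure the spread between mice.

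The 10 genes, the lists and the tests were chosen with earlier results of these data known. All 10 genes are named. Of the lists, the called genes are named, at most 3 in each direction, and the 3 genes most like each of the 10, of which 1 is not reported here. Alternatives were DESeq2 1.42.0, its size factors in edgeR, no filter, sex as a term, 8 groups, each sex alone, a robust fit and leaving out each mouse. Responses within each sex, the levels without mouse 15 and DESeq2 on the lists were added after the data were seen. Other assays of the study were not analysed here.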

Additional observations from a re-analysis of the deposited data

Results flagged for a closer look

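Of 40 sets of values, each being 1 gene in 1 of the 4 groups, 3 held a mouse far from the others (chance gives about 1 in 20). *Hmox1* was at 12.05 CPM in the exercised mD3AKO mouse 19, where the next mouse was at 6.73 CPM, and that mouse ranked 2nd of 25 in the sum of macrophage and leukocyte markers. *Prdx1* was at 131.9 CPM in the rested WT mouse 20, against 152.6 to 155.4 CPM in the rest of its group. *G6pdx* was at 12.01 CPM in the rested mD3AKO mouse 21, against 3.50 to 6.97 CPM in the rest of its group, and that mouse ranked 2nd of 25 in the sum of adipocyte markers (867.7 CPM).

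The response of *Srxn1* to exercise was larger in males than in females, by 1.044 on the log2 scale in the test of the difference itself (edgeR with 8 groups). Other marker lists had unequal values in the sexes as well, with none called by edgeR and 0 of each of these lists at an unadjusted p under 0.05: the median difference was -0.66 for the blood markers (0 of 7 above 0), -0.38 for fibroblasts (1 of 7 above 0) and 0.27 for adipocytes (6 of 7 above 0). Of the 10 soleus fiber genes 80% lay above 0, with a median of 0.081. None of these 10 was called, and 1 had an unadjusted p under 0.05, against 546 of all 16340 genes. The part of these lists in the *Srxn1* difference was not tested.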

How the results depend on the processing

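The exercise calls of *Nfe2l2* and *Srxn1* held under each alternative run, leave-one-out fits included, except that *Srxn1* was not called in females alone (0.33, edgeR adjusted p = 0.145). In females alone 1 of the 10 genes was called for exercise, against 512 of all 16895 genes tested there. For exercise in mD3AKO mice 1 was called there, against 184 of 16895. For exercise in WT mice 2 genes were called with 8 groups, against 645 of 16340, and 2 in males alone, against 207 of 16074. Genes called for the sex difference in response ranged from 0 to 1 when a mouse was left out. Values near 0 changed sign: for exercise *Keap1* in males alone (-0.015) and with a mouse left out (-0.0047 to 0.030), and *G6pdx* with a mouse left out (-0.12 to 0.11), for genotype *Nfe2l2* in males alone (-0.048) and with a mouse left out (-0.041 to 0.040), for the interaction *Nfe2l2* with a mouse left out (-0.12 to 0.045), and for genotype at rest *Srxn1* in females alone (0.0096). The cause was not tested.

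Over all genes, 44 were called for genotype, against 81 by DESeq2 and 72 with sex as a term, 15 against 23 by DESeq2 at rest and 18 against 28 after exercise. With 1 sex alone, and so fewer mice, genotype calls fell to 23 in males and 6 in females and exercise calls from 1699 to 966 and 512. Genes called for the sex difference ranged from 2 to 17 with a mouse left out, against 9. No paired analysis was possible because each mouse number occurs once. Depth limits *Hmox1* and *G6pdx* most, at 4410 and 5000 counts over all libraries.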
